A study of Drosophila melanogaster with 12 samples.

Results

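The mitochondrial genome of Drosophila melanogaster was represented in the deposited expression table by 37 of its 17158 genes, chosen as the rows whose FlyBase symbol begins with mt:. They comprised 13 mRNA genes, 2 rRNA genes and 22 tRNA genes. Poly(A) RNA had been sequenced from wing imaginal discs, the larval epithelia that give rise to the adult wing and part of the thorax, of larvae at the third instar. Regenerating discs, in which apoptosis had been induced, were compared with undamaged control discs, kept alike but without induced cell death, at times of 0 h, 15 h and 25 h from the induction. Each of the resulting 6 groups had 2 libraries of 40 pooled discs. By the labels both kinds of disc differ in genotype, but no allele, driver or inducing agent is named, and the cells in which apoptosis was induced are not stated in the sources used here.

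The small circular genome of animal mitochondria encodes the rRNAs and tRNAs of the mitochondrial ribosome's own translation system and core subunits of the respiratory chain and ATP synthase. Both strands are copied into long precursors by a dedicated RNA polymerase. The precursors are cut mainly at the tRNAs that lie between the coding genes, and most mRNAs then receive a short poly(A) tail. Because neighbouring genes share precursors, their levels in the RNA pool depend on processing, tailing and stability as well as on transcription. In Drosophila the pairs ATPase8 with ATPase6, ND4L with ND4 and ND6 with Cyt-b are known to stay on shared mRNAs after processing.

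The unit is FPKM, in which fragments are scaled to transcript length and to the library's total, given by the authors as 1 merged value per group. No spread between replicates could therefore be computed, no difference has a replicate check and no test was run. The counts behind the values are not in the table, so depth is unknown. A gene with 1 FPKM or more in 1 or both columns is called higher or lower where its log2 ratio, taken after adding 1 FPKM to each value, reached 1 or -1. This scale understates changes of low genes. All 10 wing disc epithelium markers stood at 1 FPKM or more in each of the 6 columns. Their median log2 ratio was 0.24 at 0 h, 0.29 at 15 h and -0.51 at 25 h, where all 10 were below 0 and their summed level was 281 FPKM without damage and 191 FPKM with it. The log2 ratio of the median measured gene, regenerating over control, was 0.47 at 0 h, 0.35 at 15 h and 0.10 at 25 h, so medians are also given relative to it. Decimal points lost from 5 of the 6 columns were restored, which concerned 37 of the 89 member values above 0. The remaining column, controls at 0 h, has at most 2 decimals, and whether it is a mean or 1 library is unclear. In RNA from whole discs, fewer cells of a type and less RNA per cell cannot be told apart.

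Mitochondrial RNA took a smaller part of the profile of regenerating discs at every time. The 37 genes held 19.7%, 15.2% and 12.8% of the summed FPKM in control discs at 0 h, 15 h and 25 h. In regenerating discs they held 5.54%, 4.27% and 4.61%. The lowest control share was thus above the highest regenerating share. Weighting each gene by its annotated exonic length, which approximates a share of fragments, gave 23.1%, 15.9% and 13.03% in control discs and 5.83%, 4.17% and 4.95% in regenerating discs. The summed FPKM of the 13 mRNA genes was 92258, 78879 and 61521 in control discs and 25079, 17574 and 20843 in regenerating discs. These sums were 3.68, 4.49 and 2.95 times higher in control discs at 0 h, 15 h and 25 h. The summed FPKM of all other genes differed far less, at 1.08, 1.03 and 1.15 times higher in regenerating discs.

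**Figure D1:**
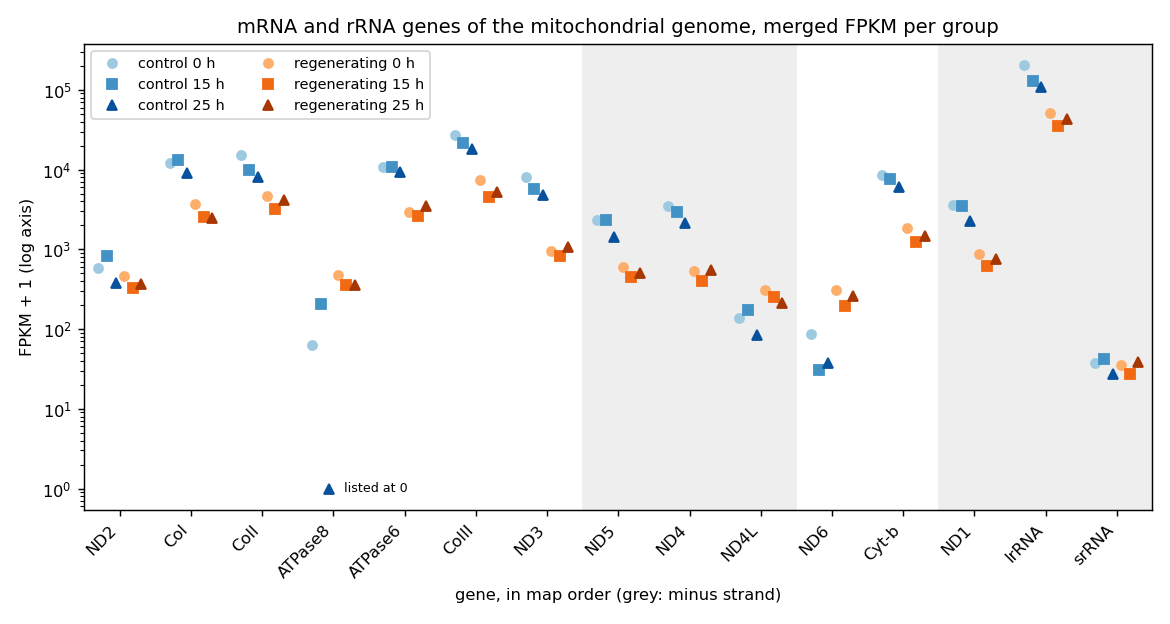
FPKM + 1 on a log axis for the 15 mRNA and rRNA genes of the mitochondrial genome in map order, 1 point per merged group column, blue for control and orange for regenerating discs, grey background for the minus strand. For 10 genes all 3 regenerating points lie below all 3 control points, and for ATPase8, ND4L and ND6 they lie above.

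The difference was not uniform over the genome. Of the 15 mRNA and rRNA genes, 10 had all 3 regenerating columns below all 3 control columns and 3 had them above, while ND2 and srRNA overlapped. Among 8604 nuclear genes of at least 1 FPKM, 1.71% lay wholly below and 22.1% wholly above, so that the share of members above, 20%, was near that of nuclear genes. The counts of 10 and 3 were the same under median-of-ratios scaling and with columns scaled to the same sum of all or of nuclear genes. In that order the nuclear genes wholly below were then 6.93%, 1.53% and 2.43%, and those wholly above 9.05%, 20.1% and 10.4%. Leaving out the columns of 0 h, 15 h or 25 h gave 11, 10 and 12 below, and 3 above each time, beside 12%, 2.67% and 4.82% of nuclear genes below and 45.2%, 28.1% and 49.5% above.

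At 0 h 10 of the 15 genes were lower and 3 higher, against a background of 3.04% lower and 7.47% higher among 8202 measured genes. Control values of the 10 exceeded regenerating ones 3.19 to 8.32 times. At 15 h 11 were lower and 1 higher, against 2.2% and 5.95% of 8095 genes, and the excess in control discs was 2.54 to 7.18 times. At 25 h 9 were lower and 3 higher, against 3.19% and 9.11% of 8149 genes, with an excess of up to 4.43 times among the lower ones. One of the 3 higher genes at 25 h, ATPase8, was listed at 0 in control discs. That column had 9462 genes listed at 0, against 7465 to 8538 in the other columns. Genes at 0 in control discs are thus part of the 9.11%. Of 136 nuclear non-coding RNA genes higher at 25 h, 7 were above 0 in both columns. The median log2 ratio of the 13 mRNA genes was -1.87, -2.24 and -1.50, or -2.34, -2.60 and -1.61 relative to all measured genes. Lower at all 3 times were 9 members, against 0.413% of 7752 genes, and higher at all 3 times was 1, ND6, against 0.8%. Nuclear genes of high expression were seldom lower. Of nuclear genes of at least 1000 FPKM, 1.31% were lower and 3.92% higher at 0 h, 0.676% and 2.03% at 15 h, and 2.72% and 3.4% at 25 h.

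**Figure D2:**
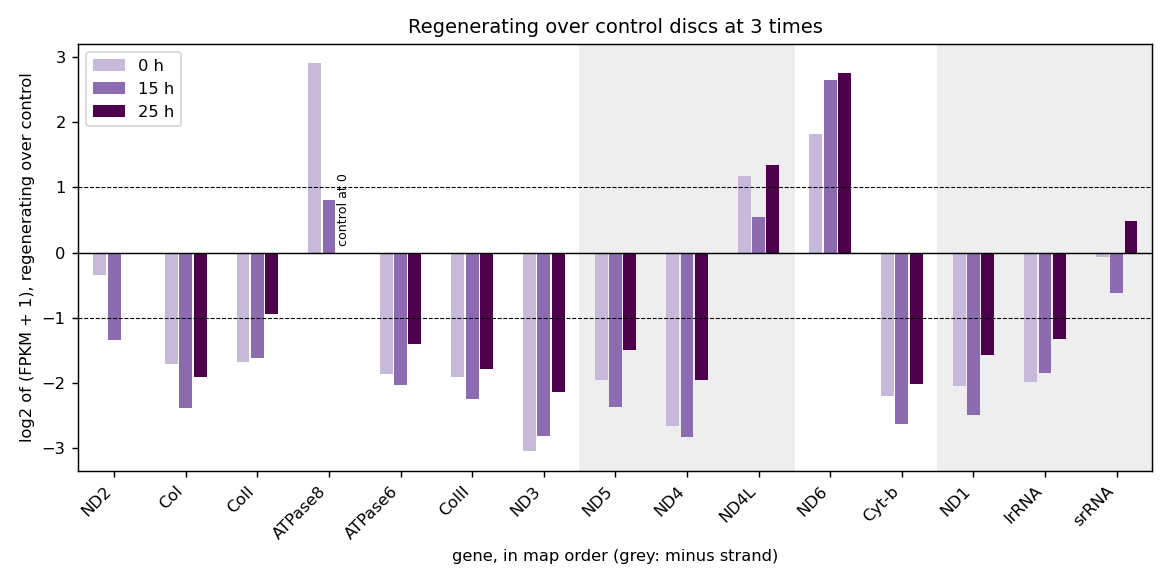
Log2 ratio of (FPKM + 1), regenerating over control, for the 15 genes in map order at 0 h, 15 h and 25 h, with dashed lines at the threshold of 1 in either direction and grey for the minus strand. ND6 is above the line at all 3 times, 9 genes are below it at all 3 times, and no bar is drawn for ATPase8 at 25 h because it was listed at 0 in control discs.

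Other measures moved with the treatment as well. Nuclear rRNA genes, whose products carry no stable poly(A) tail, summed to 345, 635 and 878 FPKM in control discs and 2085, 1483 and 1712 FPKM in regenerating discs. Of these, 18SrRNA:CR45838 stood at 127, 290.1 and 463 FPKM in control discs and 782, 863 and 837 FPKM in regenerating discs. The rRNA rows did not all go 1 way. pre-rRNA:CR45845 stood at 51.4, 51.1 and 53.4 FPKM in control discs and 28.8, 24.4 and 31.8 FPKM in regenerating discs, and 28SrRNA:CR45837 at 39.5, 20.03 and 0 FPKM against 653, 0 and 255 FPKM. Markers of fat body, another tissue, summed over 8 matched genes to 259.9, 8.30 and 56.6 FPKM in control discs and to 405, 148 and 719.7 FPKM in regenerating discs. Of its 7 measured markers, 3, 7 and 7 were higher at 0 h, 15 h and 25 h, with Apoltp at 0 in control discs at 25 h and in regenerating discs at 15 h and 25 h. Within control discs 7 of these 7 were lower at 15 h than at 0 h. Hemocyte markers summed over 10 genes to 20.3 to 28.2 FPKM in control discs and 21.7 to 31.1 FPKM in regenerating discs, with lz at 0 in every column. Of 7 measured at 0 h, 1 was lower, He, which was at 0 in regenerating discs. Of 6 measured at 25 h, 3 were higher, with He and PPO2 at 0 in control discs. Over all measured genes 7.47%, 5.95% and 9.11% were higher at 0 h, 15 h and 25 h, and 3.04% were lower at 0 h. Within control discs 2.09% were lower at 15 h than at 0 h. The 8 matched markers of muscle and its precursors summed to 43.7 to 48.6 FPKM against 55.3 to 79.5 FPKM, with 2 of 7 measured higher at 25 h. The 4 matched tracheal markers summed to 156 to 273 FPKM against 243 to 392 FPKM, with 0 past the threshold. The part of these differences in the mitochondrial values was not tested.

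The large ribosomal RNA dominated the set. mt:lrRNA (FBgn0013686, positions 12735 to 14058, minus strand, assembly BDGP6.54, which shares dm6 coordinates), the RNA core of the large mitochondrial ribosomal subunit, stood at 203937, 129509 and 108562 FPKM in control discs. It stood at 51169, 35702 and 43433 FPKM in regenerating discs. Every control value was above every regenerating value, with log2 ratios of -1.99, -1.86 and -1.32. Among all genes it ranked 1 in each control column and 2 in each regenerating column, where RpL41, a cytosolic ribosomal protein gene, ranked 1. Its share of the summed FPKM of mitochondrial genes, in contrast, was 62.1% to 68.8% in control discs and 67.0% to 67.5% in regenerating discs, and these ranges overlap.

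The small ribosomal RNA behaved differently. mt:srRNA (FBgn0013688, 14131 to 14916, minus strand), the RNA core of the small subunit, stood at 36.2, 41.1 and 26.2 FPKM in control discs and 34.5, 26.4 and 37.2 FPKM in regenerating discs. The groups overlapped and no ratio passed the threshold, at -0.07, -0.62 and 0.49. The ribosome uses both rRNAs in equal number, yet lrRNA exceeded srRNA 3151 to 5629 times in control discs and 1169 to 1483 times in regenerating discs. The libraries hold poly(A) RNA, so the values describe that fraction of each rRNA. Within a column srRNA was 0.0178% to 0.0317% of lrRNA in control discs and 0.0674% to 0.0855% in regenerating discs, without overlap.

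The 3 genes of cytochrome c oxidase, complex IV, which passes electrons to oxygen, included the highest mRNA of the set. mt:CoI (FBgn0013674, 1474 to 3009, plus strand), the catalytic subunit, stood at 12183, 13180 and 9152 FPKM in control discs and 3723, 2520 and 2439 FPKM in regenerating discs. Its log2 ratios of -1.71, -2.39 and -1.91 all passed the threshold. mt:CoIII (FBgn0013676, 4736 to 5524, plus strand), a core subunit, stood at 27464, 21540 and 17988 FPKM in control discs and 7330, 4546 and 5175 FPKM in regenerating discs. It was the highest mRNA of the mitochondrial genome in every column. Among all genes it ranked 4 in each control column and 41, 64 and 66 in the regenerating columns, with log2 ratios of -1.91, -2.24 and -1.80. mt:CoII (FBgn0013675, 3083 to 3767, plus strand), which binds cytochrome c, stood at 15094, 9985 and 8062 FPKM in control discs and 4725, 3233 and 4187 FPKM in regenerating discs. Its ratios were -1.68, -1.63 and -0.95. CoII thus missed the threshold at 25 h as deposited, and narrowly after median-of-ratios scaling. It passed at -1.01 with columns scaled to the same sum and at -1.14 with the sum of nuclear genes.

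In complex III, mt:Cyt-b (FBgn0013678, 10499 to 11635, plus strand), the heme protein that carries electrons between both quinone sites, is the only subunit encoded in the organelle. It stood at 8465, 7670 and 6008 FPKM in control discs and 1829, 1240 and 1487 FPKM in regenerating discs. With ratios of -2.21, -2.63 and -2.01 it was among the 9 genes lower at all 3 times. In ATP synthase, mt:ATPase6 (FBgn0013672, 4062 to 4736, plus strand), part of the proton channel, stood at 10775, 10765 and 9236 FPKM in control discs and 2950, 2618 and 3480 FPKM in regenerating discs. Its ratios were -1.87, -2.04 and -1.41.

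Complex I, the NADH dehydrogenase, has 7 subunits encoded in the organelle, all of its membrane arm, and these differed widely among themselves. mt:ND3 (FBgn0013681, 5608 to 5961, plus strand) stood at 7989, 5778 and 4753 FPKM in control discs and 961, 821 and 1073 FPKM in regenerating discs. Its ratio of -3.05 at 0 h was the lowest of any member with a value above 0 in both columns, and the ratios at 15 h and 25 h were -2.81 and -2.15. mt:ND4 (FBgn0262952, 8207 to 9545, minus strand), an antiporter-like subunit, stood at 3443, 2902 and 2117 FPKM in control discs and 541, 404 and 546 FPKM in regenerating discs. Its ratios were -2.67, -2.84 and -1.95, so that ND4 was the lowest member at 15 h. Both genes had regenerating values well under every control value.

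mt:ND1 (FBgn0013679, 11721 to 12659, minus strand), which lies at the quinone site, stood at 3632, 3517 and 2291 FPKM in control discs and 872, 622 and 766 FPKM in regenerating discs. mt:ND5 (FBgn0013684, 6409 to 8125, minus strand), another antiporter-like subunit and the longest of the mRNA genes at 1717 bases, stood at 2341, 2311 and 1420 FPKM in control discs and 600.4, 444 and 500.5 FPKM in regenerating discs. Ratios of ND1 were -2.06, -2.496 and -1.58 and those of ND5 were -1.96, -2.38 and -1.50. mt:ND2 (FBgn0013680, 240 to 1263, plus strand), the third antiporter-like subunit, was the lowest in control discs among mRNA genes of over 1000 bases. It stood at 588, 824 and 374 FPKM in control discs and 462, 324 and 367 FPKM in regenerating discs. The groups overlapped, and its ratio passed the threshold at 15 h, at -1.34, but not at 0 h or 25 h, at -0.35 and -0.03.

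The 3 mRNA genes whose regenerating columns all stood above the control columns were a share near that of nuclear genes, and the 1 called higher at 15 h was 1 of 15 against 5.95% of all genes. mt:ND6 (FBgn0013685, 9971 to 10495, plus strand), a membrane-arm subunit of complex I, stood at 86.8, 29.7 and 37.1 FPKM in control discs and 310.1, 191 and 258 FPKM in regenerating discs. Every regenerating value was above every control value, with ratios of 1.82, 2.65 and 2.76. mt:ND4L (FBgn0013683, 9545 to 9835, minus strand), a small membrane-arm subunit, stood at 135, 173 and 83.3 FPKM in control discs and 307, 253 and 214 FPKM in regenerating discs. The groups did not overlap, and its ratios were 1.18, 0.54 and 1.35. At 0 h ND4L did not pass the threshold after median-of-ratios scaling, at 0.64.

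mt:ATPase8 (FBgn0013673, 3907 to 4068, plus strand), a small membrane subunit of ATP synthase, was at 61.7 and 204 FPKM in control discs at 0 h and 15 h and was listed at 0 at 25 h. In regenerating discs it stood at 469, 358 and 351 FPKM. Its ratio was 2.91 at 0 h and 0.81 at 15 h, and no ratio is given at 25 h. ATPase8 is the shortest mRNA gene at 162 bases. No gene of under 193 bases was above 0 in control discs at 25 h, whereas the shortest gene above 0 had 157 bases in control discs at 0 h and 15 h, 135 and 157 in regenerating discs at 0 h and 25 h, and 162, ATPase8 itself, at 15 h. Whether length has a part in the listing at 0 was not tested.

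**Figure D3:**
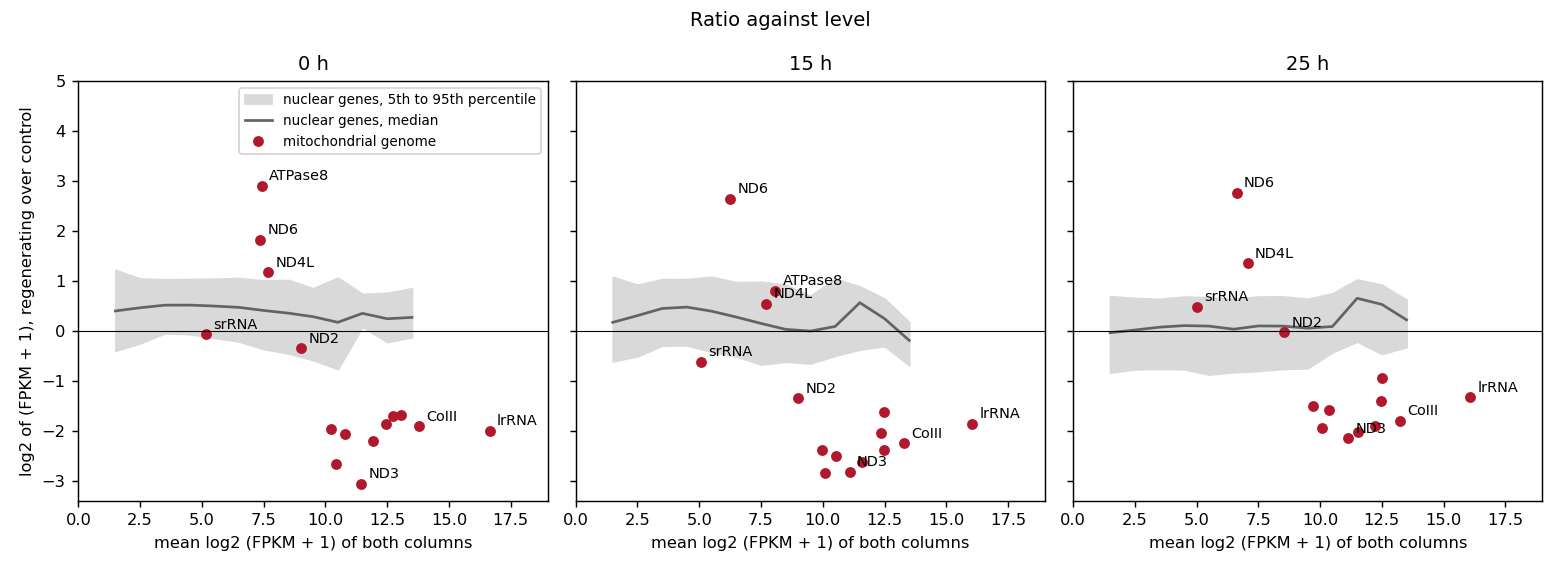
Log2 ratio of (FPKM + 1), regenerating over control, against the mean log2 (FPKM + 1) of both columns at 0 h, 15 h and 25 h. Red points are mitochondrial mRNA and rRNA genes above 0 in both columns, the grey band spans the 5th to 95th percentile of nuclear genes in bins of level holding at least 20 genes, and the line is their median. CoI, CoII, CoIII, ATPase6, Cyt-b, ND1, ND3, ND4 and ND5 lie below the band at all 3 times, CoII least so at 25 h with -0.95, and ND6 lies above it. The level of lrRNA is beyond the end of the band.

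In each column ND2, ATPase8, ND4L and ND6 were below the 9 other mRNA genes. Together the 4 made up 0.94%, 1.56% and 0.80% of the summed FPKM of the 13 in control discs and 6.17%, 6.41% and 5.71% in regenerating discs. The span of the set was narrower in regenerating discs. The highest mRNA exceeded the lowest one above 0 by 445 to 725 times in control discs and by 23.7 to 24.2 times in regenerating discs. Across the 13 mRNA genes, which share their libraries, Spearman rho of the log2 ratio was -0.47, -0.55 and -0.51 with gene length and -0.47, -0.47 and -0.62 with the mean log2 FPKM of the control columns of the other times. By this rank measure length and level ordered the ratios about equally. Pearson r differed more, at -0.55, -0.58 and -0.59 with length and -0.92, -0.84 and -0.79 with level. The listing of ATPase8 at 0, with 1 FPKM added, enters its level at 0 h and 15 h and its ratio at 25 h. The coefficients with level at all 3 times, and those with length at 25 h, thus include it. The part of length or level in the ratios was not tested. ND3, at 354 bases, was lower at all times, while ND6, at 525 bases, was higher at all times. The shortest mRNA genes, ATPase8 at 162 bases and ND4L at 291 bases, lay wholly above, and the longest, ND5 at 1717 bases, wholly below.

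The order of levels was the same in its upper part and changed further down. lrRNA, then CoIII, led all 6 columns. CoI, CoII and ATPase6 took the next 3 places in changing order, and Cyt-b, ND3 and ND1 followed in that order in every column. ND4 was above ND5 in all control columns and below it in regenerating discs at 0 h and 15 h. ATPase8 took places 14, 12 and 15 of the 15 in control discs and 11, 11 and 12 in regenerating discs, above ND2 at 0 h and 15 h. With no spread given, neighbours in these orders cannot be said to differ. Some shares were close in all columns. CoIII held 27.3% to 29.8% of the summed FPKM of the 13 mRNA genes in control discs and 24.8% to 29.2% in regenerating discs. ND3, however, held 7.33% to 8.66% in control discs and 3.83% to 5.15% in regenerating discs, and CoII 12.7% to 16.4% and 18.4% to 20.1%.

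Neighbours in the genome were then compared within a column, where the scaling of columns cancels. ATPase8 overlaps ATPase6 by 7 bases on the same strand and ND4L overlaps ND4 by 1 base, so how overlapping reads were assigned bears on these values, while ND6 ends 3 bases before Cyt-b. ATPase8 was 0.57% of ATPase6 at 0 h and 1.89% at 15 h in control discs and listed at 0 at 25 h, and 15.9%, 13.7% and 10.1% in regenerating discs. ND4L was 3.93%, 5.97% and 3.93% of ND4 in control discs and 56.8%, 62.5% and 39.1% in regenerating discs. ND6 was 1.03%, 0.387% and 0.617% of Cyt-b in control discs and 17.0%, 15.4% and 17.3% in regenerating discs. In all 3 pairs the regenerating columns lay above every control column. This follows from the ranges of the single genes, since the first gene of each pair lay wholly above and the second wholly below. As the genes of each pair are known to stay on shared mRNAs, their values need not measure separate RNAs. The part of read assignment in these percentages was not tested. For ND6 over Cyt-b the difference was 16.5, 39.8 and 28.1 times, and for ND4L over ND4 14.4, 10.5 and 9.94 times.

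ND2 precedes CoI on the plus strand with tRNA genes between them. It was 4.83%, 6.25% and 4.09% of CoI in control discs and 12.4%, 12.9% and 15.1% in regenerating discs, again without overlap. ND3 stood the other way, at 26.4% to 29.1% of CoIII in control discs and 13.1% to 20.7% in regenerating discs. ND5 was 67.0% to 79.6% of ND4 in control discs and 91.6% to 111% in regenerating discs. CoII was 75.8% to 124% of CoI in control discs and 127% to 172% in regenerating discs, also without overlap. Of the 11 ratios compared, 2 overlapped between groups. No share for pairs of nuclear genes is at hand to set beside this count. CoIII was 163% to 225% of CoI in control discs and 180.4% to 212% in regenerating discs, and ATPase6 39.2% to 51.3% of CoIII against 40.2% to 67.2%. ND1, which precedes lrRNA on the map, was 1.78% to 2.72% of it in control discs and 1.70% to 1.76% in regenerating discs. These ranges only just missed each other.

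**Figure D4:**
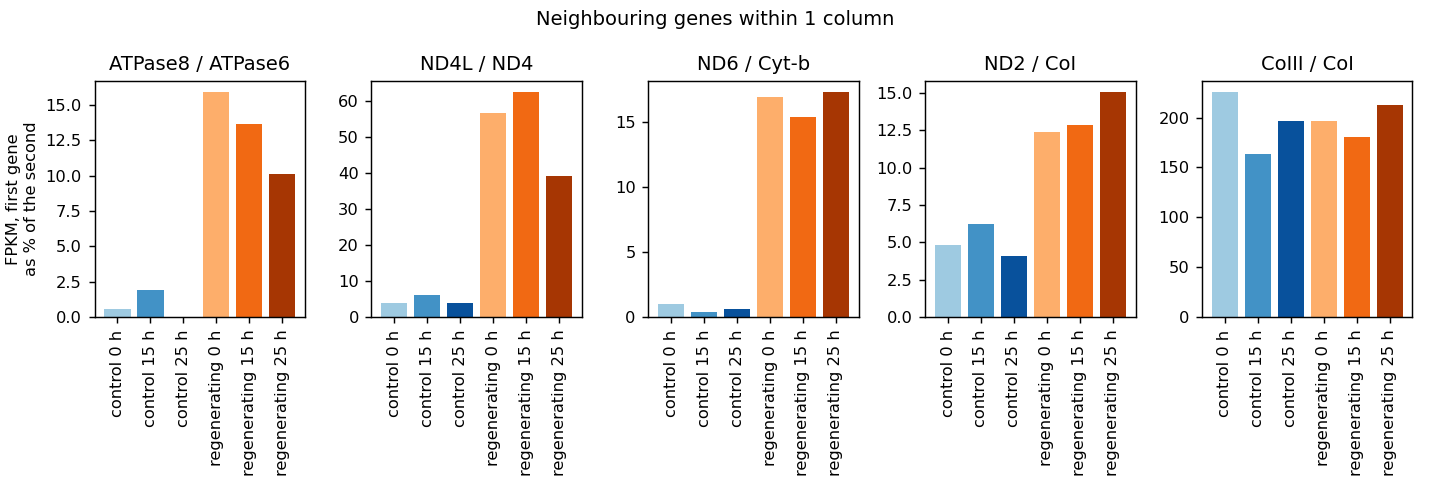
FPKM of a gene as a percentage of that of its neighbour, or of CoI for CoIII, in each of the 6 merged columns, with bars from 0 and a separate linear axis per pair. ATPase8, ND4L and ND6 stand at 5.97% of their neighbour or less in control discs and at 10.1% or more in regenerating discs, whereas CoIII over CoI overlaps.

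Strand did not separate the members. Of the mRNA genes 9 lie on the plus strand and 4 on the minus strand. The summed FPKM of the plus-strand mRNAs exceeded that of the minus-strand mRNAs 7.86 to 9.41 times in control discs and 9.19 to 9.81 times in regenerating discs, with overlapping ranges. Both strands held lower and higher members, with ND6 and ATPase8 higher on the plus strand and ND4L on the minus strand.

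All 22 tRNA genes, 14 on the plus strand and 8 on the minus strand, were listed at 0 in all 6 columns. They are the adaptors that bring amino acids to the mitochondrial ribosome, 1 gene each for Ile, Gln, Met, Trp, Cys, Tyr, Lys, Asp, Gly, Ala, Arg, Asn, Glu, Phe, His, Thr, Pro and Val and 2 each for Leu and Ser. They measure 62 to 72 bases. The 162 nuclear genes in the table of at most 72 bases were also listed at 0 in every column. A value of 0 is therefore no measure of tRNA abundance here.

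Time within a treatment moved the genes less. In regenerating discs 0 of the 15 genes passed the threshold from 0 h to 15 h, against a background of 3.26% higher and 3.68% lower, or from 15 h to 25 h, against 2.86% and 2.58%. Their ratios lay between -0.69 and -0.17 for the earlier interval and between -0.24 and 0.48 for the later one. In control discs from 0 h to 15 h ATPase8 was higher at 1.71 and ND6 lower at -1.52, against 5.02% higher and 2.09% lower among all genes. From 15 h to 25 h ND2 and ND4L were lower at -1.14 and -1.05 and ATPase8 went to a listing at 0, which made 3 lower and 0 higher, against 5.3% and 1.01%. Most of the abundant members had an order in time in control discs. lrRNA was at its highest at 0 h and at its lowest at 25 h. The same held for CoII, CoIII, ATPase6, Cyt-b, ND1, ND3, ND4 and ND5, while CoI was highest at 15 h. The summed FPKM of all other genes in control discs also fell with time, at 1207969, 1164070 and 1158763. No share of nuclear genes with this order is at hand. The median log2 ratio of the 13 mRNA genes was -0.05 from 0 h to 15 h and -0.45 from 15 h to 25 h in control discs, beside 0.30 and 0.15 for all measured genes. Consecutive intervals share the column of 15 h.

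The respiratory complexes also contain subunits from nuclear genes, whose mRNAs are made in the nucleus and translated in the cytosol. Of 69 measured nuclear genes of the respiratory chain and ATP synthase, 0 were lower at any of the 3 times, and 0, 7 and 2 were higher at 0 h, 15 h and 25 h. Over all measured genes 3.04%, 2.2% and 3.19% were lower and 7.47%, 5.95% and 9.11% higher, so a count of 0 lower is near the background. Their median log2 ratios were 0.32, 0.41 and 0.41, or -0.15, 0.06 and 0.30 relative to all genes. At 15 h the ATP synthase subunit gene ATPsynD stood at 144 FPKM in control discs against 311 FPKM after damage, the complex IV gene COX7A at 210.3 against 485 FPKM and the complex III gene UQCR-Q at 182 against 414 FPKM. At 25 h the 2 higher genes were ATPsynD, at 191 against 393 FPKM, and the complex IV gene cype, at 361 against 728 FPKM.

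Within a column the balance between both genomes therefore differed. Summed over complex IV, mitochondrial mRNAs exceeded the 9 nuclear ones 10.6, 11.2 and 8.09 times in control discs and 2.66, 1.86 and 1.98 times in regenerating discs. For complex I the ratio to 34 nuclear genes was 1.69, 1.81 and 1.35 in control discs and 0.368, 0.341 and 0.366 in regenerating discs. Complex III gave 1.49, 1.97 and 1.55 in control discs against 0.368, 0.317 and 0.334, and ATP synthase 1.34, 1.63 and 1.21 against 0.356, 0.32 and 0.398. In each of the 4 complexes all control columns were above all regenerating columns. This largely follows from the ranges of the single genes, since the most abundant mitochondrial mRNAs of each complex lay wholly below. In complexes I and III and in ATP synthase, mitochondrial mRNAs outweighed nuclear ones in every control column and were outweighed in every regenerating column.

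**Figure D5:**
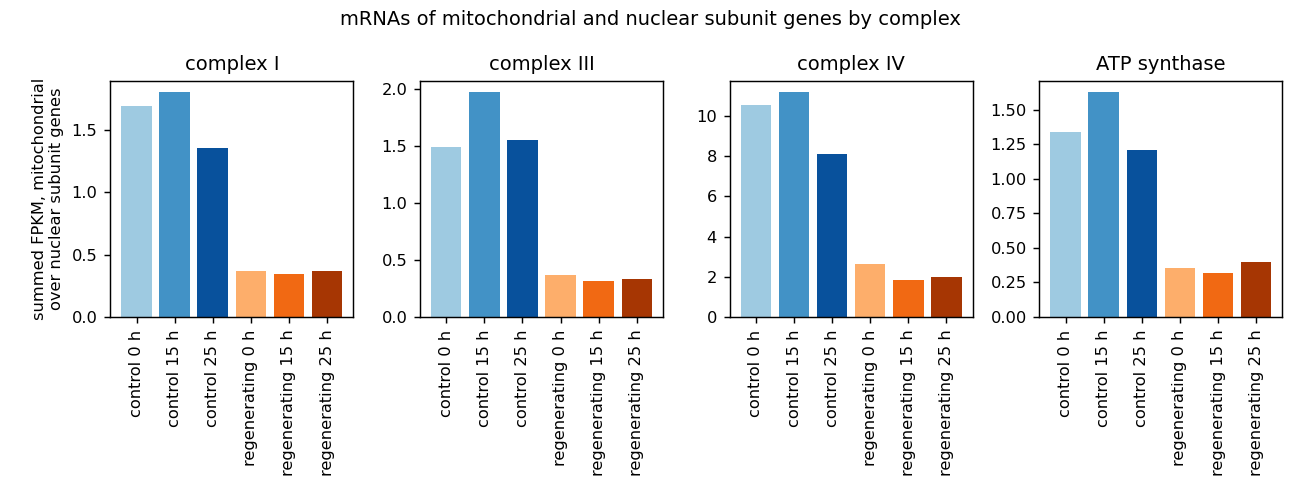
Summed FPKM of subunit genes of the mitochondrial genome over that of nuclear subunit genes, by complex and merged column, with bars from 0 and a separate linear axis per complex. The lowest control bar for complex IV is 8.09 and the highest regenerating bar 2.66.

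Genes of the machinery that maintains and expresses the mitochondrial genome were listed separately. Matched were 7 of 9 listed for transcription, 10 of 14 for RNA processing, 8 of 10 for replication and 11 of 15 for translation. Of 7 measured transcription genes 0 passed the threshold at any time, with medians of 0.47, 0.41 and 0.34. The same was true of 10 measured genes of mitochondrial RNA processing and stability, with medians of 0.34, 0.40 and 0.22. Of 8 genes of DNA replication and maintenance, mtSSB, the single-strand DNA-binding protein, was higher at 0 h, with 96.5 FPKM in control discs against 204 FPKM after damage, and rnh1, a ribonuclease H gene, at 15 h, with 16.8 against 40.2 FPKM. Each was 1 of 8, beside 7.47% of all measured genes higher at 0 h and 5.95% at 15 h. Of the mitochondrial translation factors, 2 of 11 measured were higher at 15 h, beside the same 5.95%. The translation factors past the threshold were the initiation factor gene mIF3, at 7.10 against 17.8 FPKM, and the elongation factor gene mEFTu1, at 39.6 against 84.7 FPKM.

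Proteins of the mitochondrial ribosome are nuclear products too. Of 71 measured genes 2, 4 and 0 were higher at 0 h, 15 h and 25 h and 0 lower, which is at or under the 7.47%, 5.95% and 9.11% higher over all genes. Their medians were 0.32, 0.21 and 0.26, beside the 0.47, 0.35 and 0.10 of all measured genes. Among those past the threshold at 15 h were mRpS30, at 17.4 FPKM in control discs against 40.3 FPKM after damage, and mRpL48, at 21.5 against 48.9 FPKM. Genes of mitochondrial dynamics and quality control had 0 of 12 measured members past the threshold at any time. No gene of these nuclear lists was lower at any of the 3 times, beside a background of 3.19% or less.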

How the data were processed

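The authors deposited 1 table of FPKM, with 1 column per group merged over 2 libraries, per the file's name. Per the submitters' processing notes STAR 2.4.0j, RSEM and the build dm6 were used, with no role given. The sources used here do not state how replicates were merged, whether counting used strand, or how reads in overlapping genes were divided. Besides these the table has 1 more column, which matched no sample and was left out.

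Whole numbers of at least 1000 ending in 5, in every column but that of control discs at 0 h, were divided by 1000 unless the undivided value was nearer the other columns. This restored 19565 values and kept 1, that of Act5C, which is no member. The reading was made from the values themselves.

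Symbols were paired with 16912 of 17158 identifiers. Coordinates and lengths are those of BDGP6.54 in Ensembl. Calculations used Python 3.11.15, pandas 2.3.3 and scipy 1.17.1, with a pseudocount of 1, and were tested on simulated data. All 15 mRNA and rRNA genes are named, and of each nuclear list up to 4 genes past the threshold, of which examples are printed. Members and lists were chosen with earlier results of these data known. The 7 comparisons were repeated with thresholds of 1.5 and 4 times, pseudocounts of 0.1 and 5, a minimum of 5 FPKM or none, and every whole number ending in 5 divided, and after scaling by median of ratios or to the same sum of all or of nuclear genes. Restricting genes to those above 0 in both columns or to those whose decimal points were intact, rescaling before comparing ranges, and leaving out the columns of a time were added after the data were seen.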

Additional observations from a re-analysis of the deposited data

How the results depend on the processing

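No paired analysis was possible because the table holds 1 merged column per group, and for the same reason no library could be left out. Of 270 recomputed counts and medians over the mitochondrial mRNA and rRNA genes, 251 kept their side of the threshold or, for counts, stayed within 1.5 times. Of 538 ratios of single genes 512 kept their side of the threshold. None changed sign where it had passed the threshold, but a change of sign short of it was counted as kept. A threshold of 4 times left 1 gene higher and 4 lower at 0 h and 2 lower at 25 h, and the medians of -1.87 and -1.50 no longer passed it. It left 0 higher and 0 lower in control discs from 0 h to 15 h and 1 lower from 15 h to 25 h. A threshold of 1.5 times gave 2 higher at 15 h, 3 lower in control discs from 0 h to 15 h and 6 from 15 h to 25 h, and 2 lower in regenerating discs from 0 h to 15 h. Median-of-ratios scaling gave 2 lower in control discs from 0 h to 15 h, with or without genes at 0, and moved the median of all genes to -0.02, -0.01 and 0.06 at 0 h, 15 h and 25 h. Among genes with no restored decimal point in either column, which are fewer by construction, 1 of 9 was higher and 7 lower at 0 h, 0 of 4 higher and 3 lower at 15 h, and 1 of 3 higher and 1 lower at 25 h. Depth is unknown, so how precisely low members such as ND6 and srRNA were measured cannot be given.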
